A study of Mus musculus with 9 samples.

Results

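The genes described here set type 2 conventional dendritic cells (cDC2) apart from the 2 other dendritic cell subsets of mouse spleen that were sequenced beside them, cDC1 and mcDC. They were selected on the measured values. A gene counted as higher in cDC2 when its lowest cDC2 library lay above all 6 cDC1 and mcDC libraries, and as lower when its highest cDC2 library lay below all 6. Of the 11971 genes above 1 RPKM (reads scaled to gene length and to library size) in at least 2 of the 9 libraries, 704 were higher and 795 were lower, 1499 in all. Which direction held more genes depended on the scaling, with 984 higher and 567 lower under median-of-ratios scaling and 850 and 602 under quantile normalization. The differences of cDC2 from the other subsets are therefore given as descriptions, without a test.

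RNA was sequenced from cDC1, cDC2 and mcDC sorted from the spleens of C57Bl/6 mice that were 8 to 12 weeks old, with 3 libraries of each subset and no treatment named. The labels do not expand mcDC, and the sorting markers are not given in the sources used here. It is also not stated that libraries of the same subset stem from different mice, so p-values reflect library-to-library spread only, which may be technical. In bulk RNA of this kind, fewer cells of a type and less RNA per cell cannot be told apart.

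Conventional dendritic cells take up antigen and present it to T cells. The cDC1 branch depends on the transcription factors IRF8 and BATF3 and is known for taking up dying cells and cross-presenting their antigens. The cDC2 branch of the spleen carries CD11b and SIRPα, depends in part on IRF4, Notch2 and lymphotoxin β receptor signals, mainly presents antigen on MHC class II to CD4 T cells, and shares many receptors and enzymes with monocytes.

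The libraries held 9683350 to 11008672 recovered reads in cDC1, 9187715 to 12429013 in cDC2 and 5138302 to 8224422 in mcDC. For a 1 kb gene, 1 read equalled 0.0805 to 0.195 RPKM. The share of genes at 0 was highest in mcDC library 3 (12.35%) and lowest in cDC2 library 2 (2.71%). Library numbers 1 to 3 follow the runs of consecutive titles, each of which holds 1 library of each subset. The same rule applied to cDC1 found 1133 genes higher and 1546 lower than in the 6 other libraries, and applied to mcDC it found 667 higher and 151 lower.

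The 4 marker genes given for cDC2 were all among the genes selected. The rule used these same values, so nothing is read from their selection. Itgam (gene ID 16409), which encodes the CD11b integrin chain, was at 80.9, 105 and 117 RPKM in cDC2, 3.99, 2.61 and 3.099 in cDC1, and 15.04, 16.4 and 10.04 in mcDC. Ace (11421), angiotensin-converting enzyme, was at 81.6, 96.1 and 104 RPKM in cDC2, 1.04, 0.465 and 0.559 in cDC1, and 7.17, 6.82 and 6.93 in mcDC. Both were high in every cDC2 library, far lower in mcDC and lowest in cDC1. Clec10a (17312), a galactose-binding C-type lectin, was at 20.6, 45.4 and 67.5 RPKM in cDC2, 2.93, 1.801 and 2.05 in cDC1, and 0.678, 4.35 and 4.94 in mcDC. Lyz2 (17105), the lysozyme of myeloid cells, was at 698, 1176 and 1462 RPKM in cDC2, 88.2, 84.01 and 116 in cDC1, and 201, 214 and 219.5 in mcDC, and reads of Lyz2 and its near-identical neighbour Lyz1 may have been split between the pair. On the log2(RPKM + 1) scale mcDC exceeded cDC1 by 2.25 (SE 0.16, adjusted p = 4.2e-05) for Ace, by 1.79 (SE 0.21, adjusted p = 0.00054) for Itgam and by 1.14 (SE 0.25, adjusted p = 0.013) for Lyz2. The Lyz2 call was lost without cDC1 library 2 (adjusted p = 0.064, range over 19 alternatives 0.0022 to 0.064). For Clec10a the difference was 0.22 (SE 0.52, adjusted p = 0.82), and the mcDC libraries overlapped the cDC1 libraries.

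The cDC1 markers Cd8a, Xcr1, Clec9a, Itgae and Irf8 were among the genes lower in cDC2, and their levels are given further on. Of the 22 cDC1 identity genes tested, 15 were lower and 7 were not selected. Among genes known from cDC2, Cd4 was at 83.8 to 123 RPKM in cDC2, 5.86 to 20.6 in cDC1 and 34.4 to 96.6 in mcDC. Esam was at 13.99 to 24.5 RPKM in cDC2, 4.38 to 8.91 in cDC1 and 24.3 to 29.1 in mcDC. Irf4 was at 20.5 to 36.1 RPKM in cDC2, 5.68 to 23.3 in cDC1 and 12.8 to 38.96 in mcDC. The lectin Clec4a4 was at 67.8 to 83.8 RPKM in cDC2, 0.378 to 9.31 in cDC1 and 28.1 to 77.9 in mcDC. These 4 were not selected, because at least 1 mcDC library lay above the lowest cDC2 library. In Esam the mcDC libraries all lay near or above the highest cDC2 library. In Irf4 the highest cDC1 library, too, exceeded the lowest cDC2 library.

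The largest margins between the lowest cDC2 library and the highest other library, on RPKM + 1 and among genes with a cDC2 mean of at least 5 RPKM, belonged to genes of varied function. Cyp2ab1, a cytochrome P450 gene, was at 5.36, 6.76 and 6.32 RPKM in cDC2, 0, 0.133 and 0 in cDC1, and 0, 0.0657 and 0 in mcDC. It was all but absent from the 6 other libraries, with 1 read in the mcDC libraries together. Cyp4f18, a P450 that inactivates leukotriene B4, was at 42.2, 47.04 and 66.8 RPKM in cDC2, 4.32, 1.92 and 3.57 in cDC1, and 9.34, 6.65 and 7.19 in mcDC. The interleukin 1 receptor antagonist Il1rn was at 7.05, 9.42 and 10.02 RPKM in cDC2, 0.0331, 0.132 and 0.226 in cDC1, and 0.841, 1.11 and 1.13 in mcDC. In both Cyp4f18 and Il1rn the mcDC libraries lay above the cDC1 libraries and well below cDC2. The mcDC excess over cDC1 was 1.06 (SE 0.25, adjusted p = 0.02) for Cyp4f18 and 0.84 (SE 0.19, adjusted p = 0.017) for Il1rn on the log2(RPKM + 1) scale. These calls were lost in 3 and 4 of 19 alternatives, with adjusted p between 0.0066 and 0.089 for Cyp4f18 and between 0.0047 and 0.073 for Il1rn, and without cDC1 library 2 they were at 0.071 and 0.064. Adgre4, an adhesion G protein-coupled receptor of myeloid cells, was at 74.7, 82.1 and 94.6 RPKM in cDC2, 2.44, 1.09 and 2.95 in cDC1, and 22.7, 24.1 and 18.97 in mcDC, with mcDC above cDC1 by 2.90 (SE 0.23, adjusted p = 5.9e-05). Smpdl3b, a lipid-modifying enzyme of the macrophage membrane, was at 9.54, 12.3 and 19.1 RPKM in cDC2, 2.36, 1.74 and 1.55 in cDC1, and 1.198, 1.03 and 1.11 in mcDC, and here mcDC was below cDC1 in each library without a call (difference -0.44, SE 0.24, adjusted p = 0.27). The eosinophil-associated ribonuclease Ear2 was at 29.4 to 35.8 RPKM in cDC2, 2.02 to 3.29 in cDC1 and 3.53 to 8.78 in mcDC. The activating receptor Cd300lb was at 11.7 to 19.02 RPKM in cDC2, 0.155 to 1.07 in cDC1 and 1.44 to 3.09 in mcDC. Ear2 belongs to a family of closely similar genes, so its reads may not all be its own. Of the 15 genes with the largest margins, 7 were called higher in mcDC than in cDC1, 0 were called lower, and in 9 the 3 mcDC libraries all lay above the 3 cDC1 libraries. Over all genes tested these shares were 9.53%, 5.88% and 19.5%.

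**Figure D1:**
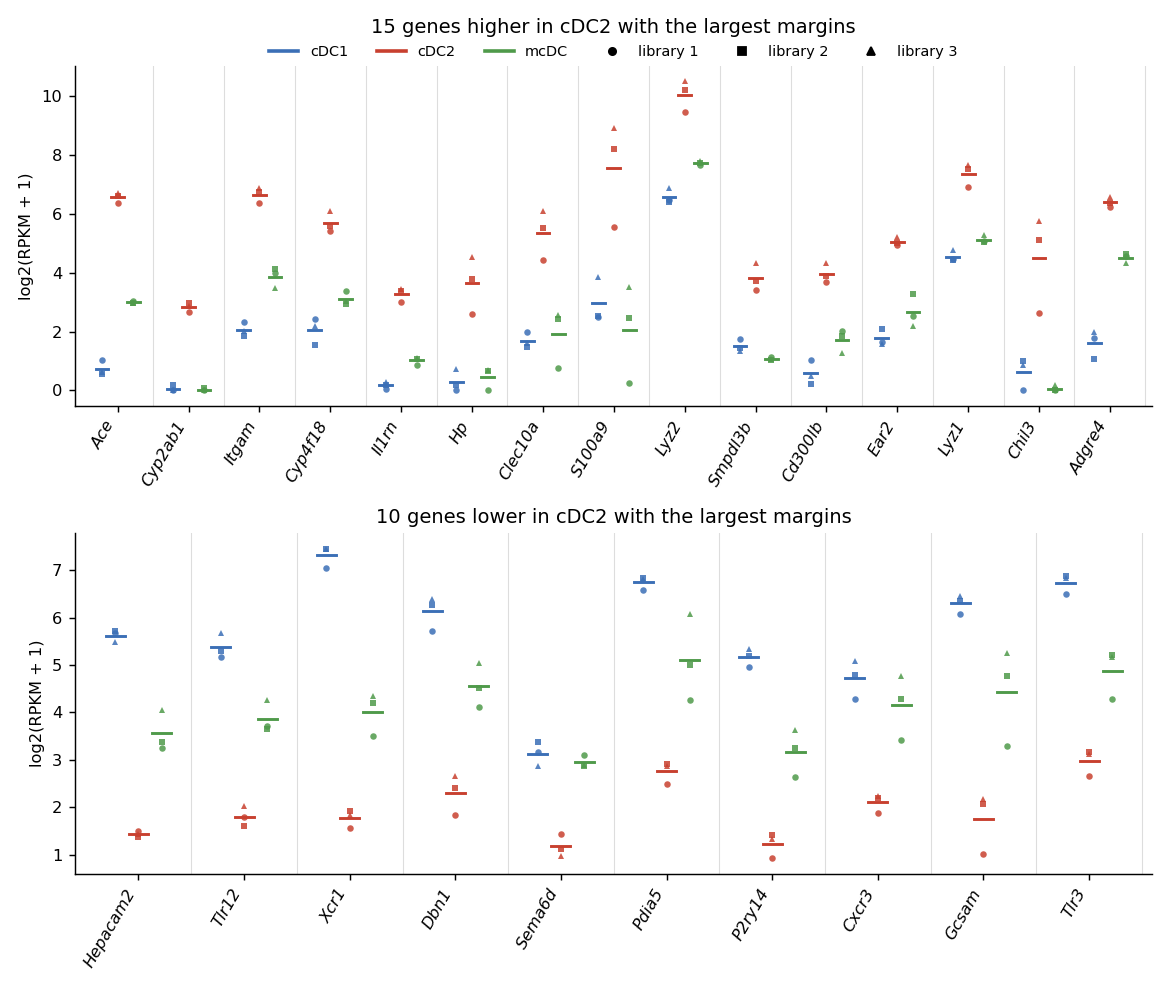
Expression on the log2(RPKM + 1) scale of the 15 genes higher and the 10 genes lower in cDC2 with the largest margins, within the limits on mean level given in the text. Each symbol is 1 library, short bars are the means of the 3 libraries of a subset, and colours mark the subset; in Ace the mcDC libraries (6.82 to 7.17 RPKM) lie between cDC1 (0.465 to 1.04) and cDC2 (81.6 to 104), while in Cyp2ab1 both other subsets lie near 0.

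How far these genes stood apart varied widely. The margin was at least 1.2-fold on RPKM + 1 in 270 of the 704 higher genes, at least 1.5-fold in 122, at least 2-fold in 58 and at least 4-fold in 4. In 305 of them the libraries were apart by more than the 95% Poisson limits of their reads, which cover counting error only. A total of 601 had a cDC2 mean of at least 5 RPKM. The cDC2 mean was at least 2 times the mcDC mean in 207 genes and at least 4 times in 85, and in 46 genes every mcDC library was under 1 RPKM. Of the 704, 39 passed the filter on low values through the cDC2 libraries alone, Cyp2ab1 among them, so they had to differ. This holds for every higher gene named here with no cDC1 or mcDC library above 1 RPKM. Of the lower genes, 212 had a margin of at least 1.2-fold, 76 of at least 1.5-fold, 21 of at least 2-fold and 1 of at least 4-fold, and in 150 the libraries were apart by more than their Poisson limits. At the edge of the rule, the just-included Zdhhc6 was at 24.3 to 25.8 RPKM in cDC2, 14.4 to 19.3 in cDC1 and 20.8 to 24.3 in mcDC. Dok3 was at 22.99 to 34.7 RPKM in cDC2, 1.58 to 2.13 in cDC1 and 8.32 to 22.99 in mcDC. The just-excluded Mcl1 was at 304 to 349 RPKM in cDC2, 248 to 268 in cDC1 and 233 to 304 in mcDC. Prpf6 was at 24.6 to 26.01 RPKM in cDC2, 19.3 to 22.3 in cDC1 and 20.7 to 24.6 in mcDC. On the low side Gpd2 (12.1 to 14.01 in cDC2, 17.3 to 20.4 in cDC1 and 14.02 to 18.3 in mcDC, RPKM) and Snapc1 (6.43 to 8.45 in cDC2, 10.8 to 13.4 in cDC1 and 8.45 to 12.4 in mcDC) were just inside, and Tmem183a (14.3 to 16.2 in cDC2, 17.7 to 20.9 in cDC1 and 16.2 to 18.9 in mcDC) and Pdlim7 (0.726 to 3.11 in cDC2, 8.98 to 11.7 in cDC1 and 3.11 to 3.5998 in mcDC) just outside.

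In the fit of all genes with limma, 171 of the 704 higher genes also passed an adjusted p of 0.05 against each of the other subsets in that direction, and 116 of the 795 lower genes did. Over all genes tested the shares were 1.45% upward and 0.969% downward. These contrasts are those by which the genes were chosen, so nothing is read from them. The rule itself took 5.88% of the genes tested upward and 6.64% downward. With the title run as a replicate block the count called against both subsets was 450 in place of 287.

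The contrast of mcDC with cDC1 was not used by the rule, which treats those 6 libraries alike, although it rests on the same libraries. Of the 704 genes higher in cDC2, 238 (33.8%) were called higher in mcDC than in cDC1, against 9.53% of all genes tested. A single gene, Ptafr, was called lower (0.142%, against 5.88% of all genes), and 465 were not called. The fit pools its spread over all 3 subsets, while the rule favours genes whose cDC2 libraries lie close together. The selection by itself can therefore raise the share of calls. With only cDC1 and mcDC in the fit, 166 of the 704 (23.6%) were called higher, against 5.32% of all genes. The 3 mcDC libraries lay above the 3 cDC1 libraries without overlap in 331 of the 704 (47.0%, against 19.5% of all genes) and below them in 19 (2.7%, against 11%). In 409 mcDC was above cDC1 in 3 of 3 title runs. On the log2(RPKM + 1) scale the median difference of mcDC from cDC1 was 0.37 over the 704 genes and 0.09 over all genes tested. The medians for cDC2 were 1.05 above cDC1 and 0.59 above mcDC. Placed on the way from the cDC1 mean to the cDC2 mean on that scale, the median gene had its mcDC mean 39.0% along, with quartiles at 10.5% and 57.8%.

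For the 795 genes lower in cDC2 the picture was turned. In mcDC, 198 (24.9%) were called lower than in cDC1, against 5.88% of all genes, and 29 (3.65%) were called higher, against 9.53%. The remaining 568 were not called. With only cDC1 and mcDC in the fit, 148 (18.6%) were called lower, against 3.84% of all genes. The mcDC libraries lay below the cDC1 libraries without overlap in 290 (36.5%, against 11%) and above them in 67 (8.43%, against 19.5%). The median difference of mcDC from cDC1 was -0.14. Over all genes tested 1141 were called higher and 704 lower in mcDC than in cDC1, so that 61.8% of calls were upward. With median-of-ratios scaling the median difference over all genes moved from 0.09 to -0.03 and 46.5% of calls were upward. With that scaling 27.7% of the higher genes were called upward against 6.99% of all genes, and 30.9% of the lower genes were called downward against 8.04%. It also raised the number of the 704 called lower in mcDC from 1 to 9.

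**Figure D2:**
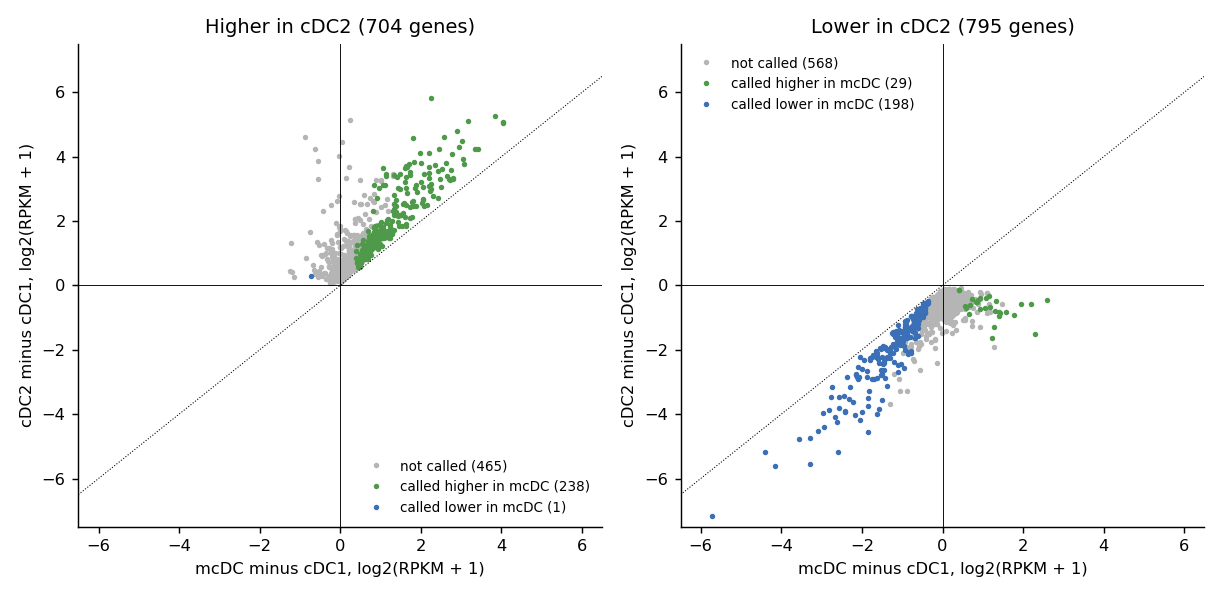
For each gene selected, the difference of mcDC from cDC1 (horizontal) against that of cDC2 from cDC1 (vertical), both on the log2(RPKM + 1) scale, with higher genes on the left and lower genes on the right. Colours give the limma call for mcDC against cDC1; the rule by itself keeps points above the dotted line of equality on the left and below it on the right, and the horizontal spread is what it leaves free, with 238 of 704 and 198 of 795 genes called on the side of cDC2.

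Genes with a steep rise in mcDC over cDC1 and a further step to cDC2 included an enzyme and several myeloid surface proteins. Tgm2, tissue transglutaminase, was at 196, 226 and 201 RPKM in cDC2, 5.37, 4.78 and 5.29 in cDC1, and 103, 98.4 and 96.5 in mcDC. The mcDC libraries lay apart from both other subsets, and exceeded cDC1 by 4.03 (SE 0.10, adjusted p = 1e-07). Clec4a1, a lectin of the DCIR family, was at 134, 149.7 and 171 RPKM in cDC2, 5.83, 2.04 and 2.05 in cDC1, and 61.1, 52.3 and 55.7 in mcDC, with mcDC above cDC1 by 3.85 (SE 0.28, adjusted p = 4.2e-05). Its relative Clec4a3 was at 58.8, 86.9 and 102 RPKM in cDC2, 1.72, 0.8 and 1.75 in cDC1, and 16.5, 24.4 and 21.5 in mcDC, with a difference of 3.18 (SE 0.25, adjusted p = 5.9e-05). The members of this family are near-identical in part, so their reads may be divided among them. Adgre1, which encodes the macrophage antigen F4/80, was at 95.7, 90.2 and 87.6 RPKM in cDC2, 6.97, 1.76 and 4.29 in cDC1, and 64.4, 46.1 and 45.1 in mcDC, with mcDC higher by 3.42 (SE 0.32, adjusted p = 0.00017). Sirpb1a, an activating relative of SIRPα, was at 142, 138 and 136 RPKM in cDC2, 9.73, 2.36 and 1.17 in cDC1, and 101, 59.6 and 56.4 in mcDC, with a difference of 4.05 (SE 0.49, adjusted p = 0.00058), and here too closely similar neighbours make the reads uncertain. The exception was Ptafr, the receptor for platelet-activating factor, at 26.8, 26.2 and 28.1 RPKM in cDC2, 19.1, 22.97 and 24.4 in cDC1, and 14.8, 12.9 and 10.99 in mcDC. Its mcDC libraries were all below its cDC1 libraries, with a difference of -0.74 (SE 0.14, adjusted p = 0.0072) on the log2 scale, while cDC2 lay only slightly above cDC1.

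Of the gene lists examined, the largest shares of higher genes were in the lists of neutrophil genes, paired immunoreceptors, cDC2 identity, monocyte and macrophage genes, interferon stimulated genes, Fc and complement receptors, and C-type lectins. Altogether 151 of the 704 higher and 65 of the 795 lower genes were in any of the 30 lists. The counts of higher and lower genes per list stand beside the shares of all genes tested, 5.88% higher and 6.64% lower. The counts of calls per list below stand beside 33.8% of all 704 higher genes called higher in mcDC than in cDC1. Over all genes tested that share was 9.53%. Of the 795 lower genes, 24.9% were called lower in mcDC than in cDC1, against 5.88% of all genes tested. In the erythroid and platelet list (11 tested) and the list for eosinophils, basophils and mast cells (8 tested), 0 genes were selected in either direction. The summed erythroid and platelet level still differed between libraries. It was 6.43, 150 and 149 RPKM in cDC1 libraries 1, 2 and 3, 6.27, 22.5 and 19.3 in cDC2, and 12.8, 129 and 90.0 in mcDC. Library 1 was lowest in every subset, and the part of erythroid and platelet RNA in this was not tested.

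**Figure D3:**
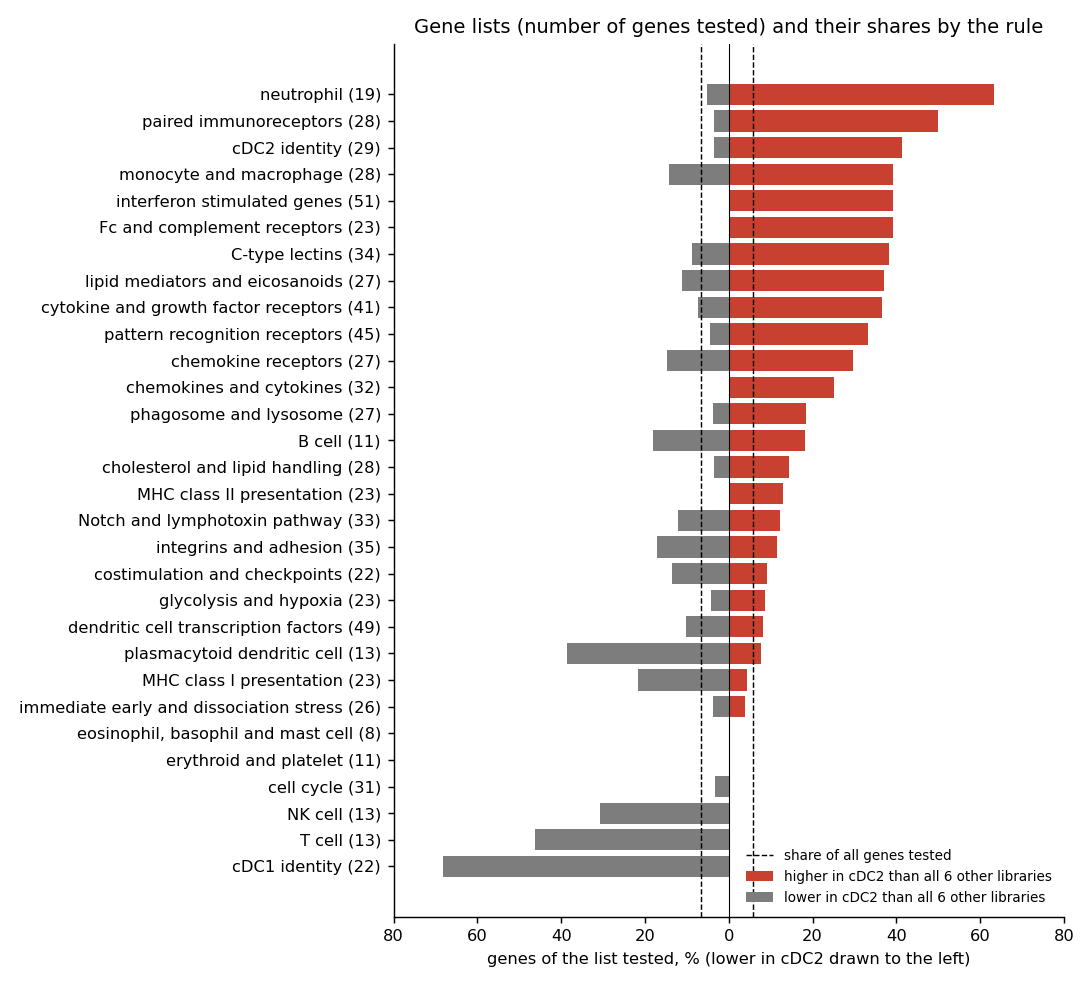
Share of the tested genes of each list that were higher in cDC2 (red, to the right) or lower in cDC2 (grey, to the left) than in all 6 other libraries, in percent, with the number tested in brackets. Dashed lines give the shares of all genes tested, 5.88% upward and 6.64% downward; the neutrophil list reaches 63.2% upward and the cDC1 list 68.2% downward.

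Granule genes of neutrophils made up part of what was high in cDC2 and low in mcDC, and they differed strongly between the cDC2 libraries. Of 19 neutrophil genes tested, 12 were higher in cDC2, 1 was lower (Asprv1), and the remaining 6 were not selected. S100a8, a calcium-binding alarmin, was at 60.2, 345 and 632 RPKM in cDC2, 1.62, 6.48 and 14.2 in cDC1, and 0.619, 12.4 and 21.3 in mcDC. Its partner S100a9 was at 45.9, 296 and 482 RPKM in cDC2, 4.63, 4.76 and 13.4 in cDC1, and 0.177, 4.45 and 10.5 in mcDC. Ngp, neutrophilic granule protein, was at 7.11, 124 and 235 RPKM in cDC2, 0.626, 2.73 and 5.06 in cDC1, and 0.523, 0.309 and 4.01 in mcDC. In each of these cDC2 library 1 was lowest and library 3 highest. Ltf, lactoferrin, was at 2.58, 45.4 and 72.6 RPKM in the cDC2 libraries, Lcn2, lipocalin 2, at 4.205, 45.05 and 83.7 and Retnlg, resistin-like gamma, at 6.97, 24.4 and 27.2. Camp, the cathelicidin gene and a defining neutrophil marker, was at 2.18, 61.4 and 108 RPKM in cDC2, 0, 0.606 and 2.93 in cDC1, and 0 in every library of mcDC, and was not selected since cDC1 library 3 exceeded cDC2 library 1. The summed level of the list was 219, 1042 and 1740 RPKM in cDC2 libraries 1, 2 and 3, against 52.0 to 94.6 in cDC1 and 63.5 to 92.6 in mcDC. Other members of the list varied less over the cDC2 libraries, among them the G-CSF receptor Csf3r (21.6, 33.1 and 29.4 RPKM in cDC2, 1.801, 0.535 and 0.925 in cDC1, and 9.94, 6.66 and 3.39 in mcDC) and the interleukin 1 decoy receptor Il1r2 (8.896, 9.04 and 10.2 RPKM in cDC2, 0.27, 0.607 and 0.0767 in cDC1, and 5.5999, 3.61 and 6.94 in mcDC). Of the 12 higher genes of this list, 2 were called higher in mcDC than in cDC1 and 0 lower. The part that neutrophil RNA has in these levels was not tested.

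Most of the genes higher in cDC2 with a cDC2 mean of at least 5 RPKM spanned less than 2-fold over the cDC2 libraries. The rule itself favours genes whose cDC2 libraries lie close together, so nothing is read from their median spread. Among the 601 with a cDC2 mean of at least 5 RPKM the median ratio of the highest to the lowest cDC2 library was 1.16, against 1.2 over the 8171 genes tested at that level. The ratio was at least 2-fold in 28 and at least 4-fold in 8, which were Ngp, Ltf, Lcn2, S100a8, S100a9, Chil3, Cd177 and Hp. Over the 8171 genes at that level the ratio was at least 2-fold in 212 and at least 4-fold in 37, both smaller parts than among the 601. The lowest cDC2 library was library 1 in 316 of the 601, library 2 in 128 and library 3 in 157, and over all genes at that level the numbers were 3257, 1593 and 3321. Library 1 was thus lowest in a larger part of the 601 than of all genes at that level. Genes with a 2-fold to 4-fold range included Retnlg, F13a1 (5.37, 15.1 and 20.6 RPKM in cDC2), Fn1 (8.89, 19.7 and 26.6), Clec10a (20.6, 45.4 and 67.5), Mgl2 (3.72, 8.62 and 10.7), Ms4a6d (5.55, 9.55 and 16.1) and Lyz2. All of these had their lowest cDC2 level in library 1, which also had the lowest neutrophil sum. Ifit1bl1 was the exception at 2-fold or more, with 10.7, 5.296 and 5.85 RPKM.

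A set of 10 genes met a stricter description, with every cDC2 library at 3 RPKM or more and every mcDC library under 1 RPKM. Among them, the small nucleolar RNA Snord4a rested on 3 or 4 reads in each cDC2 library and is not described further. Cyp2ab1, Lcn2, Hp, Mgl2 and Cd209b exceeded 1 RPKM in no cDC1 or mcDC library. They passed the filter on low values through the cDC2 libraries alone, so their low level in mcDC describes the values that chose them. Lcn2 was at 4.205, 45.05 and 83.7 RPKM in cDC2, 0, 0 and 0.967 in cDC1, and 0.142, 0 and 0.911 in mcDC. Chil3, a chitinase-like protein of myeloid cells also called Ym1, was at 5.16, 33.6 and 52.9 RPKM in cDC2, 0, 1.002 and 0.804 in cDC1, and 0, 0 and 0.126 in mcDC. Hp, haptoglobin, was at 5.08, 12.8 and 22.4 RPKM in cDC2, 0, 0.125 and 0.662 in cDC1, and 0, 0.577 and 0.623 in mcDC. Retnlg was at 6.97, 24.4 and 27.2 RPKM in cDC2, 2.84, 0.298 and 0.17 in cDC1, and 0, 0.886 and 0 in mcDC. These 4 genes and Mgl2 differed by more than 2-fold over the cDC2 libraries, with library 1 lowest as in the neutrophil sum. The other 4 differed by less than 2-fold. Ldlrad3, a member of the LDL receptor family, was at 7.34, 7.19 and 7.81 RPKM in cDC2, 2.81, 1.26 and 1.22 in cDC1, and 0.931, 0.844 and 0.0961 in mcDC, and Cyp2ab1 was described above. Mgl2, the lectin gene next to Clec10a, was at 3.72, 8.62 and 10.7 RPKM in cDC2, 0.82, 0.117 and 0.466 in cDC1, and 0.313, 0.232 and 0.125 in mcDC. Cd209b, also called SIGN-R1, was at 7.205, 3.74 and 4.49 RPKM in cDC2, 0.086, 0 and 0 in cDC1, and 0.517, 0.255 and 0.644 in mcDC, within a family of similar genes. Ptgir, the prostacyclin receptor, was at 3.72, 3.23 and 4.99 RPKM in cDC2, 2.26, 0.408 and 0.928 in cDC1, and 0.619, 0.323 and 0.408 in mcDC. In Ldlrad3 and Ptgir the highest cDC1 library reached 2.81 and 2.26 RPKM, above every mcDC library. Cyp2ab1 had 0, 1 and 0 reads in the mcDC libraries, where 3 reads correspond to 0.133 to 0.213 RPKM, the limit that a count of 0 allows for counting error only. Mgl2 had 4, 2 and 1 reads there. Without cDC2 library 1 the description was met by 18 genes, and with mcDC held under 0.5 RPKM by 4.

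**Figure D4:**
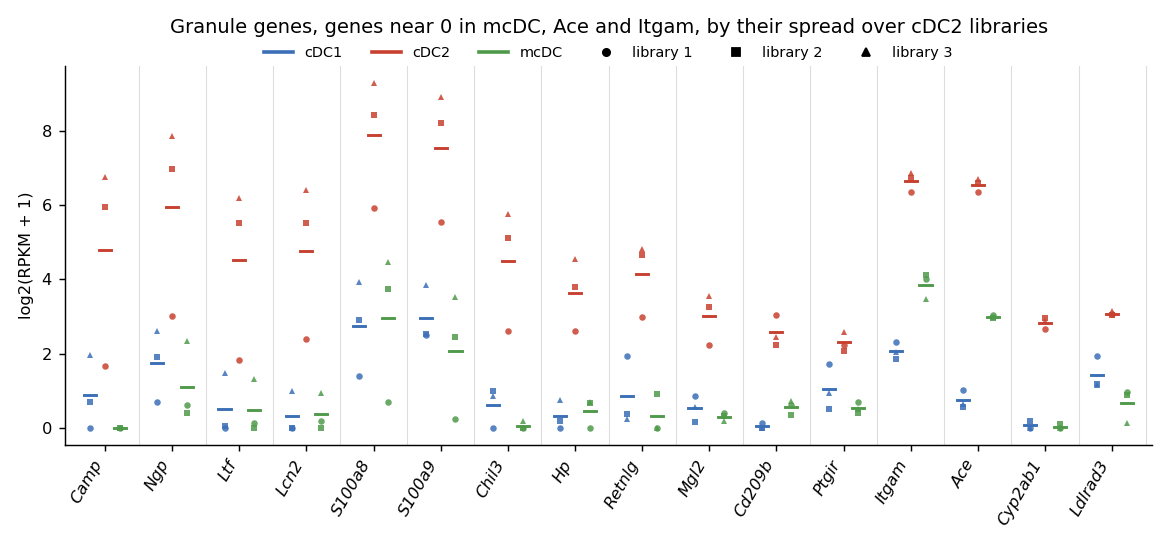
Levels on the log2(RPKM + 1) scale of granule genes, of genes near 0 in mcDC, and of Ace and Itgam, ordered from left to right by the ratio of the highest to the lowest cDC2 library. Each symbol is 1 library and bars are means of 3; in Ngp the cDC2 libraries run from 7.11 to 235 RPKM, while in Ldlrad3 they lie between 7.19 and 7.81.

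A further set with all mcDC libraries under 1 RPKM had lower levels in cDC2, and several of its genes are also known from neutrophils or monocytes. Clec4e, the Mincle receptor for mycobacterial glycolipid, was listed at 0 in all cDC1 and mcDC libraries and at 0.82, 3.44 and 4.63 RPKM in cDC2. It thus passed the filter on low values through the cDC2 libraries alone. Trem1, which amplifies inflammatory signals, was at 1.797, 2.55 and 2.36 RPKM in cDC2, and C5ar1, the C5a receptor, at 0.693, 1.33 and 1.07. Fcnb, ficolin B, was at 0.205, 3.02 and 5.297. Chil1 (0.515 to 4.33), Retnla (0.538 to 5.51) and Lrg1 (1.04 to 4.098) RPKM in cDC2 were likewise listed at 0 in every mcDC library. These last 3 were chosen after their values were seen, as were all genes named below beyond the 4 largest margins of a list in each direction. In C5ar1, Fcnb, Chil1 and Retnla the lowest cDC2 library was under 1 RPKM, and by the rule every other library lay below it. Like Clec4e, they passed the filter through the cDC2 libraries alone. Their low level in mcDC thus describes the values that chose them.

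In the cDC2 identity list 12 of 29 genes tested were higher in cDC2 and 1, Rbpj, was lower. The 12 include Itgam, Ace, Clec10a and Lyz2, the markers given for cDC2, so the share of this list is in part given beforehand. Of the 12, 8 were called higher in mcDC than in cDC1. Sirpa, the inhibitory receptor for CD47, was at 277, 278 and 267 RPKM in cDC2, 43.03, 11.5 and 13.4 in cDC1, and 213, 145 and 151 in mcDC, so that mcDC held much of the cDC2 level. Cx3cr1, the fractalkine receptor, was at 58.5, 67.1 and 72.3 RPKM in cDC2, 15.97, 6.57 and 5.88 in cDC1, and 24.9, 18.6 and 26.3 in mcDC. Zeb2, a repressor that separates myeloid from cDC1 fate, was at 19.3, 21.03 and 19.7 RPKM in cDC2, 7.23, 2.71 and 2.27 in cDC1, and 16.7, 13.4 and 5.62 in mcDC, and mcDC library 3 lay inside the cDC1 range. Csf1r, the M-CSF receptor, was at 169, 204 and 230.3 RPKM in cDC2, 32.5, 12.7 and 21.5 in cDC1, and 81.6, 74.3 and 104 in mcDC, with mcDC above cDC1 by 1.995 (SE 0.29, adjusted p = 0.0016). Listed genes that were not selected included Klf4 (98.7 to 128 RPKM in cDC2, 18.95 to 50.7 in cDC1 and 72.7 to 133 in mcDC) and Relb (89.1 to 129 RPKM in cDC2, 64.8 to 97.9 in cDC1 and 123 to 171 in mcDC), in both of which mcDC library 1 was above every cDC2 library.

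The monocyte and macrophage list had 11 of 28 genes higher and 4 lower in cDC2, and 8 of the 11 were called higher in mcDC than in cDC1. Its summed level was 2587 to 3751 RPKM in cDC2, 981 to 1142 in cDC1 and 1602 to 1884 in mcDC. Lyz1 was at 119 to 202 RPKM in cDC2, 20.4 to 26.4 in cDC1 and 31.7 to 37.6 in mcDC. Spn, CD43 of the cell surface, was at 47.5, 52.1 and 63.2 RPKM in cDC2, 17.5, 10.4 and 11.7 in cDC1, and 24.04, 29.8 and 28.1 in mcDC. Cd68, a lysosomal glycoprotein, was at 225, 241 and 303 RPKM in cDC2, 109, 109 and 129 in cDC1, and 155, 188 and 189.5 in mcDC. In all 3 the mcDC libraries lay between the other subsets. F13a1, coagulation factor XIII A chain, was at 5.37, 15.1 and 20.6 RPKM in cDC2, 0.0925, 0.3003 and 0.683 in cDC1, and 0.371, 1.51 and 0.89 in mcDC. Fn1, fibronectin, was at 8.89, 19.7 and 26.6 RPKM in cDC2, 0.244, 0.315 and 0.786 in cDC1, and 2.16, 2.46 and 6.44 in mcDC. In the last pair cDC2 library 1 was lowest, as in the neutrophil sum. The monocyte markers Ly6c2 (5.83 to 39.4 RPKM in cDC2, 23.8 to 45.6 in cDC1 and 24.4 to 44.9 in mcDC) and Fcgr1 (1.72 to 10.6 RPKM in cDC2, 0.526 to 0.836 in cDC1 and 2.77 to 7.501 in mcDC) were not selected.

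C-type lectins, which bind sugars on microbes and dying cells, had 13 of 34 genes higher and 3 lower. Cd209a, also called DC-SIGN in mouse, was at 273, 339 and 396 RPKM in cDC2, 80.03, 17.8 and 20.01 in cDC1, and 105, 75.5 and 58.5 in mcDC. Clec7a, the β-glucan receptor Dectin-1, was at 99.2, 80.3 and 96.2 RPKM in cDC2, 32.4, 9.51 and 10.5 in cDC1, and 36.8, 19.2 and 13.97 in mcDC. In both, cDC1 library 1 was the highest of its group and reached into the mcDC range. Clec4g (7.55 to 12.1 RPKM in cDC2, 0.661 to 4.19 in cDC1 and 3.78 to 6.45 in mcDC), Cd209c (15.9 to 23.4 RPKM in cDC2, 3.39 to 11.2 in cDC1 and 5.45 to 10.6 in mcDC) and Clec5a (0.854 to 2.63 RPKM in cDC2, 0.189 to 0.38 in cDC1 and 0 to 0.0318 in mcDC) had lower levels in all subsets. Siglece, an inhibitory sialic acid receptor kept on the same list, was at 32.3, 32.9 and 31.4 RPKM in cDC2, 2.21, 1.86 and 2.79 in cDC1, and 20.7, 21.96 and 22.6 in mcDC, and mcDC lay near the cDC2 level. Of the 13 genes, 3 were called higher in mcDC than in cDC1, and the median of their mcDC means lay 19.6% along the way from cDC1 to cDC2. The lower genes were Clec9a, Clec1a and Cd209d. Clec1a was at 1.07 to 1.37 RPKM in cDC2, 9.37 to 13.4 in cDC1 and 2.04 to 5.12 in mcDC. Cd209d was at 8.19 to 11.7 RPKM in cDC2, 16.2 to 53.2 in cDC1 and 15.2 to 27.1 in mcDC, again within a family of similar genes. In Clec10a, Mgl2, Clec4d (1.02, 2.34 and 2.49 RPKM in cDC2), Clec4e and Clec5a the lowest cDC2 library was library 1, as in the neutrophil sum, and the part of other cells in this was not tested.

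Fc and complement receptors, with components of complement, had 9 of 23 genes higher and 0 lower, and 5 of the 9 were called higher in mcDC than in cDC1. Fcer1g, the signalling chain shared by activating Fc receptors, was at 465, 464 and 623 RPKM in cDC2, 113, 47.8 and 54.1 in cDC1, and 288, 319 and 336 in mcDC, with mcDC above cDC1 by 2.22 (SE 0.28, adjusted p = 0.00081). Fcgr3, an activating IgG receptor, was at 18.2, 31.4 and 36.8 RPKM in cDC2, 2.68, 2.61 and 3.43 in cDC1, and 7.72, 14.1 and 13.1 in mcDC. C3, the central complement component, was at 8.25, 13.4 and 15.2 RPKM in cDC2, 0.353, 0.512 and 0.923 in cDC1, and 2.27, 1.99 and 2.04 in mcDC. Itgb2, the β2 chain that pairs with CD11b, was at 464, 465 and 448 RPKM in cDC2, 269, 259 and 248 in cDC1, and 390.3, 355 and 331 in mcDC. So the partner chain was abundant in all 3 subsets, while Itgam was not. Cd93, Cr1l and C5ar1 were also among the 9, with Cr1l at 38.3 to 41.2 RPKM in cDC2, 28.4 to 31.7 in cDC1 and 29.7 to 37.8 in mcDC.

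Among paired immunoreceptors, families of activating and inhibitory receptors encoded in clusters, 14 of 28 genes were higher in cDC2 and 1 was lower. In 11 of the 14 mcDC was called higher than cDC1, and the median mcDC mean lay 71.7% along the way from cDC1 to cDC2. Cd300ld was at 37.999, 43.3 and 50.6 RPKM in cDC2, 1.38, 0.968 and 1.44 in cDC1, and 16.2, 13.3 and 20.2 in mcDC. Cd300a, an inhibitory member, was at 47.3, 61.97 and 70.5 RPKM in cDC2, 14.5, 9.601 and 12.9 in cDC1, and 29.5, 36.7 and 42.1 in mcDC. Both had mcDC between the other subsets. Pirb, an inhibitory receptor for MHC class I, was at 172, 194 and 192 RPKM in cDC2, 106, 97.2 and 96.96 in cDC1, and 169.6, 149.7 and 166 in mcDC. Pilrb2 was at 15.3, 18.8 and 22.5 RPKM in cDC2, 0.251, 0.703 and 1.997 in cDC1, and 10.01, 10.8 and 11.1 in mcDC. Lair1, the collagen receptor, was at 34.1, 38.5 and 34.2 RPKM in cDC2, 7.85, 3.09 and 3.65 in cDC1, and 28.9, 29.8 and 27.7 in mcDC. In Lair1 and Pirb the mean mcDC level was closest to the cDC2 mean, in proportion, among these genes. Ptpn6, the phosphatase SHP-1 that acts downstream of inhibitory members, was at 334, 378 and 344 RPKM in cDC2, 151, 115 and 107 in cDC1, and 276, 281 and 256 in mcDC. In all of these mcDC lay above cDC1 in every library. Lilrb4a (38.8 to 68.7 RPKM in cDC2, 16.5 to 20.7 in cDC1 and 25.98 to 32.9 in mcDC), Cd300e (27.8 to 56.003 RPKM in cDC2, 8.15 to 17.6 in cDC1 and 13.6 to 24.8 in mcDC) and Trem1 were the 3 not called, and Trem3 was at 8.401 to 14.8 RPKM in cDC2, 0 to 0.173 in cDC1 and 1.03 to 4.63 in mcDC. Sirpb1a, Sirpb1b and Pirb have near copies, so the division of reads between copies is uncertain. Only Cd200r4 was lower in cDC2, at 0.331 to 0.51 RPKM in cDC2, 0.587 to 1.03 in cDC1 and 0.9997 to 4.34 in mcDC.

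Cytokine and growth factor receptors had 15 of 41 genes higher and 3 lower in cDC2. Il6ra, the interleukin 6 receptor chain, was at 79.7, 74.1 and 68.7 RPKM in cDC2, 29.4, 23.4 and 23.2 in cDC1, and 54.3, 46.6 and 31.2 in mcDC. Il17ra was at 89.2, 110.2 and 103 RPKM in cDC2, 39.2, 25.2 and 27.7 in cDC1, and 61.9, 54.7 and 53.4 in mcDC. Il2rg, the common γ chain, was at 231, 241 and 239.9 RPKM in cDC2, 115, 74.5 and 71.7 in cDC1, and 188, 169 and 125 in mcDC. These 3 were among the 7 of the 15 called higher in mcDC than in cDC1. The interferon receptor chain Ifnar2, also called, was at 37.9, 37.1 and 37.5 RPKM in cDC2, 15.4, 16.7 and 17.1 in cDC1, and 31.4, 27.99 and 29.3 in mcDC. Ifngr2, which was not called, was at 70.99, 78.6 and 82.3 RPKM in cDC2, 54.3, 60.2 and 56.6 in cDC1, and 62.9, 53.6 and 57.04 in mcDC. The tumour necrosis factor receptors Tnfrsf1a (71.1 to 97.8 RPKM in cDC2, 47.6 to 53.6 in cDC1 and 42.3 to 55.3 in mcDC) and Tnfrsf1b (83.7 to 97.1 RPKM in cDC2, 28.7 to 42.5 in cDC1 and 40.2 to 68.8 in mcDC), Csf2rb (84.4 to 93.1 RPKM in cDC2, 64.6 to 75.6 in cDC1 and 53.3 to 75.6 in mcDC), Il10ra (213 to 245 RPKM in cDC2, 182 to 199 in cDC1 and 129 to 191 in mcDC), Il13ra1 (22.8 to 33.2 RPKM in cDC2, 11.2 to 18.2 in cDC1 and 12.5 to 18.5 in mcDC), Il21r (64.997 to 74.4 RPKM in cDC2, 33.9 to 46.1 in cDC1 and 44.3 to 59.7 in mcDC) and Tgfbr2 (31.02 to 32.3 RPKM in cDC2, 17.3 to 22.6 in cDC1 and 17.9 to 26.8 in mcDC) were not called between mcDC and cDC1. The 3 lower genes, Il2rb, Il7r and Il18r1, are receptors best known from lymphoid cells, and all 3 were called higher in mcDC than in cDC1. Il2rb was at 3.79, 5.76 and 5.84 RPKM in cDC2, 7.58, 10.9 and 11.2 in cDC1, and 26.3, 37.9 and 29.7 in mcDC. Il7r was at 4.48 to 4.57 RPKM in cDC2, 6.41 to 9.39 in cDC1 and 11.5 to 14.4 in mcDC. Il18r1 was at 0.79 to 1.19 RPKM in cDC2, 1.35 to 2.07 in cDC1 and 4.67 to 7.697 in mcDC.

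Of chemokines and cytokines 8 of 32 genes were higher and 0 lower. Il1b was at 245, 185 and 233 RPKM in cDC2, 65.5, 43.5 and 76.4 in cDC1, and 121, 72.5 and 127 in mcDC, and its antagonist Il1rn was given above. Both chemokines among the 8, Ccl6 and Ccl9, attract myeloid cells. Ccl6 was at 69.6, 76.4 and 125 RPKM in cDC2, 17.5, 10.7 and 13.4 in cDC1, and 17.2, 29.3 and 31.8 in mcDC. Ccl9 was at 36.4, 39.4 and 60.2 RPKM in cDC2, 5.796, 2.68 and 3.53 in cDC1, and 11.8, 9.67 and 22.4 in mcDC. Only in Ccl9 of the pair were the mcDC libraries all above cDC1. Tgfb1 was at 206, 198 and 207 RPKM in cDC2, 138, 126 and 118 in cDC1, and 159.5, 139.7 and 147 in mcDC. Osm, oncostatin M, was at 3.88, 4.23 and 4.26 RPKM in cDC2, 0.857, 0.761 and 0.27 in cDC1, and 2.86, 1.32 and 1.63 in mcDC. Osm was called and Tgfb1 was not. Il16 was at 54.5 to 63.3 RPKM in cDC2, 51.4 to 54.4 in cDC1 and 45.6 to 52.002 in mcDC. Tnfsf12 was at 2.37 to 2.82 RPKM in cDC2, 0.429 to 1.77 in cDC1 and 0.344 to 2.12 in mcDC. In 3 of the 8, mcDC was called higher than cDC1.

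Chemoattractant receptors included 8 of 27 tested genes that were higher and 4 that were lower. S1pr5, a receptor for sphingosine 1-phosphate, was at 13.9, 13.9 and 17.6 RPKM in cDC2, 0.364, 0.509 and 1.45 in cDC1, and 2.04, 1.51 and 4.28 in mcDC. Its mcDC level was above cDC1 by 1.001 (SE 0.31, adjusted p = 0.06), short of a call. It was called in 5 of 19 alternatives, among them the limma fit with the title run as a replicate block (adjusted p = 0.009, range over the alternatives 0.009 to 0.19). Ltb4r1, the high-affinity leukotriene B4 receptor, was at 18.8, 14.6 and 25.4 RPKM in cDC2, 0.391, 0.847 and 0.519 in cDC1, and 5.41, 3.61 and 3.07 in mcDC. Cxcr4 was at 46.2, 43.2 and 56.4 RPKM in cDC2, 28.2, 20.3 and 17.6 in cDC1, and 34.4, 31.6 and 41.96 in mcDC. Cmklr1, the chemerin receptor, was at 1.38 to 2.46 RPKM in cDC2, 0.191 to 0.862 in cDC1 and 0.683 to 0.947 in mcDC. Cxcr2 (5.04, 7.53 and 7.68 RPKM in cDC2, 3.25, 3.87 and 2.37 in cDC1, and 5.03, 2.597 and 1.15 in mcDC) and the formyl peptide receptor Fpr2 (3.19, 4.75 and 9.98 RPKM in cDC2, 0.0701, 0.21 and 0.637 in cDC1, and 1.12, 2.08 and 2.85 in mcDC), both also neutrophil receptors, had their lowest cDC2 value in library 1. The 4 lower genes were Xcr1, P2ry14, Cxcr3 and Ccr9. Ccr9 was at 1.36, 1.24 and 0.951 RPKM in cDC2, 11.2, 9.33 and 9.37 in cDC1, and 2.38, 2.699 and 1.55 in mcDC, so that cDC2 and mcDC were both well under cDC1.

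Pattern recognition receptors, which sense microbial ligands, had 15 of 45 genes higher and 2 lower, and the higher genes covered several compartments. Among endosomal Toll-like receptors for RNA, Tlr7 was at 35.5, 36.2 and 33.9 RPKM in cDC2, 4.15, 1.65 and 1.08 in cDC1, and 22.96, 18.3 and 8.73 in mcDC. Tlr8 was at 4.93, 6.33 and 7.44 RPKM in cDC2, 0.49, 0.0998 and 0.17 in cDC1, and 2.098, 1.94 and 2.42 in mcDC. Tlr13 was at 48.9, 47.2 and 44.8 RPKM in cDC2, 27.4, 28.1 and 26.8 in cDC1, and 26.6, 26.6 and 15.2 in mcDC. Tlr7 and Tlr8 were called higher in mcDC than in cDC1, and Tlr13 was not. At the cell surface Tlr6 was at 8.84 to 10.6 RPKM in cDC2, 2.44 to 4.54 in cDC1 and 4.71 to 8.17 in mcDC. In the cytosol Casp1 was at 63.001, 67.5 and 76.3 RPKM in cDC2, 30.9, 19.004 and 17.7 in cDC1, and 53.03, 53.9 and 55.96 in mcDC. Naip2 was at 14.6 to 16.9 RPKM in cDC2, 5.02 to 5.47 in cDC1 and 6.87 to 9.69 in mcDC. Nlrp1a was at 11.4 to 14.7 RPKM in cDC2, 9.399 to 10.3 in cDC1 and 8.28 to 10.7 in mcDC. Of these 3 inflammasome genes, Casp1 and Naip2 were called higher in mcDC than in cDC1. Nod2 was at 8.52 to 10.1 RPKM in cDC2, 4.85 to 5.02 in cDC1 and 5.71 to 7.59 in mcDC. Ifi204, an interferon-inducible DNA sensor with closely similar neighbours, was at 8.05, 14.7 and 21.3 RPKM in cDC2, 1.86, 3.12 and 2.79 in cDC1, and 3.86, 3.68 and 7.7000 in mcDC. The adaptor Card9 was at 57.95 to 70.3 RPKM in cDC2, 30.7 to 31.6 in cDC1 and 37.2 to 44.1 in mcDC. The 2 lower genes, Tlr3 and Tlr12, are endosomal receptors of cDC1. Tlr3 was at 5.27, 7.94 and 7.65 RPKM in cDC2, 89.8, 116 and 113 in cDC1, and 18.4, 35.99 and 34.9 in mcDC. Tlr12 was at 2.47, 2.02 and 3.06 RPKM in cDC2, 34.9, 38.04 and 49.97 in cDC1, and 12.05, 11.5 and 18.05 in mcDC. Both were called lower in mcDC than in cDC1.

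Interferon stimulated genes, which carry out antiviral defence, had 20 of 51 genes higher in cDC2 and 0 lower, in cells for which no treatment was named. Oas2, a 2′-5′ oligoadenylate synthetase that activates RNase L, was at 21.8, 25.8 and 28.1 RPKM in cDC2, 0.941, 0.252 and 0.0782 in cDC1, and 13.6, 9.62 and 16.7 in mcDC, with mcDC above cDC1 by 3.34 (SE 0.26, adjusted p = 5.7e-05). Oas1a was at 12.3, 20.8 and 23.7 RPKM in cDC2, 1.54, 0.817 and 1.15 in cDC1, and 9.19, 7.99 and 10.9 in mcDC. Oas3 was at 9.63, 11.01 and 14.8 RPKM in cDC2, 2.002, 1.77 and 2.54 in cDC1, and 3.63, 4.04 and 2.55 in mcDC. Oasl2 was at 19.6, 23.8 and 29.3 RPKM in cDC2, 2.23, 1.65 and 2.401 in cDC1, and 9.56, 6.64 and 9.598 in mcDC. Oas1a has near-identical copies, so its reads may be shared. In all 4 the mcDC libraries lay between the other subsets without overlap, though in Oas3 mcDC library 3 came close to cDC1. Both RNA helicases that sense viral RNA, Ddx58 (RIG-I) and Ifih1 (MDA5), were among the 20. Ddx58 was at 18.9, 19.02 and 16.8 RPKM in cDC2, 2.002, 1.71 and 1.73 in cDC1, and 12.9, 12.2 and 13.2 in mcDC. Ifih1 was at 21.3, 22.4 and 19.6 RPKM in cDC2, 8.49, 6.84 and 7.12 in cDC1, and 15.2, 14.8 and 7.21 in mcDC. In Ifih1, unlike Ddx58, mcDC library 3 fell into the cDC1 range. Ifitm3, which blocks viral entry, was at 490.3, 616 and 882 RPKM in cDC2, 83.5, 53.5 and 88.3 in cDC1, and 229.7, 208 and 432 in mcDC. Rtp4 was at 20.6, 24.7 and 31.1 RPKM in cDC2, 1.27, 0.404 and 1.64 in cDC1, and 9.18, 8.11 and 8.02 in mcDC. Both were called higher in mcDC than in cDC1, as were the following pair. Xaf1 was at 10.8 to 13.5 RPKM in cDC2, 2.27 to 4.72 in cDC1 and 5.79 to 7.88 in mcDC. Slfn8 was at 17.4 to 22.8 RPKM in cDC2, 4.93 to 6.902 in cDC1 and 15.2 to 16.4 in mcDC. Of the 20 genes, 8 were called higher in mcDC than in cDC1, 0 were called lower, and 12 were not called. Those not called were Oas3, Ifih1 and 10 others, among them Isg15 (18.5, 28.3 and 34.2 RPKM in cDC2, 7.33, 16.7 and 17.1 in cDC1, and 11.4, 17.6 and 4.37 in mcDC), Rsad2 (6.66, 7.998 and 6.94 RPKM in cDC2, 0.984, 4.24 and 2.997 in cDC1, and 3.98, 6.64 and 2.36 in mcDC), Zbp1 (21.7, 33.3 and 35.1 RPKM in cDC2, 8.11, 8.097 and 10.4 in cDC1, and 12.02, 16.5 and 16.5 in mcDC) and Dhx58 (30.6, 33.9 and 39.1 RPKM in cDC2, 14.5, 20.1 and 23.002 in cDC1, and 27.2, 19.3 and 23.8 in mcDC). Ifit2 (9.75 to 12.1 RPKM in cDC2, 3.24 to 5.17 in cDC1 and 4.82 to 6.03 in mcDC), Irgm1 (44.6 to 49.98 RPKM in cDC2, 24.7 to 29.9 in cDC1 and 30.2 to 40.6 in mcDC), Parp14 (32.9 to 37.6 RPKM in cDC2, 16.8 to 18.5 in cDC1 and 20.01 to 28.4 in mcDC), Parp9 (27.3 to 29.4 RPKM in cDC2, 19.9 to 21.96 in cDC1 and 21.03 to 25.1 in mcDC), Cmpk2 (4.67 to 7.03 RPKM in cDC2, 1.48 to 2.503 in cDC1 and 2.31 to 3.32 in mcDC) and Isg20 (6.78 to 10.4 RPKM in cDC2, 2.04 to 6.58 in cDC1 and 5.03 to 5.24 in mcDC) made up the rest. Among listed genes that were not selected, Ly6e was at 197 to 332 RPKM in cDC2, 383 to 501 in cDC1 and 178 to 362 in mcDC, highest in cDC1, and Bst2, kept on the plasmacytoid list, at 46.1 to 82.2 RPKM in cDC2, 65.6 to 102 in cDC1 and 76.5 to 169 in mcDC.

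**Figure D5:**
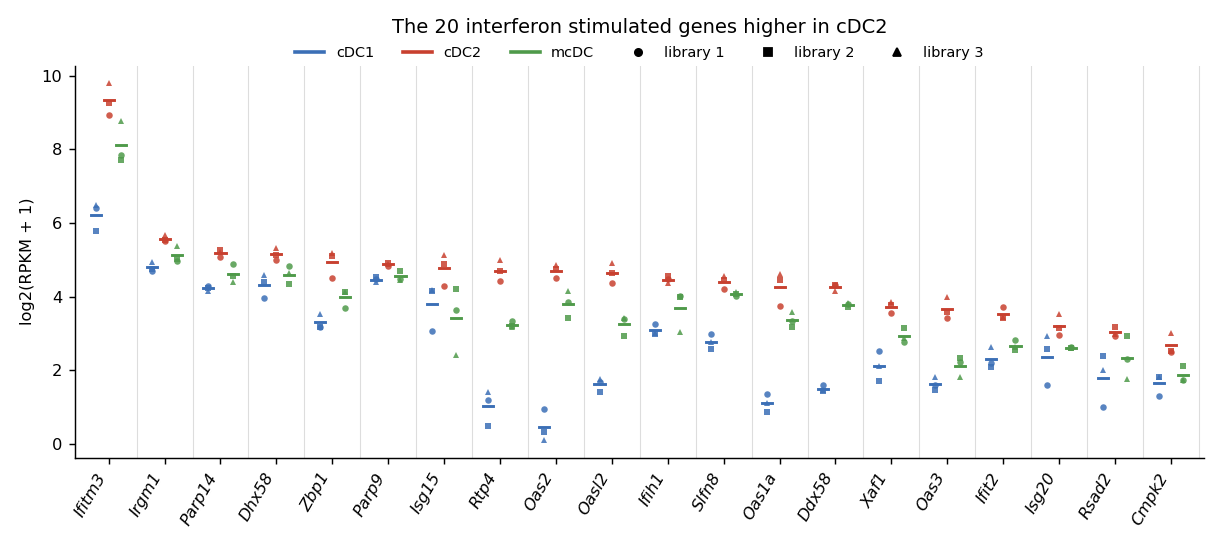
The 20 interferon stimulated genes higher in cDC2, on the log2(RPKM + 1) scale, ordered by their cDC2 mean. Each symbol is 1 library and bars are means of 3; Oas2 shows a wide gap between cDC1 (0.0782 to 0.941 RPKM) and both other subsets, while in Isg15 and Rsad2 the cDC1 and mcDC libraries overlap.

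Interferon-responsive promoters typically hold an interferon-stimulated response element, whose core was searched as GAAANNGAA on both strands of the window from 250 bases before to 50 after the annotated start (RefSeq, GRCm38.p6). The core was present in 71 of the 567 higher genes with a window (12.5%), in 44 of 645 lower genes (6.82%) and in 2317 of all 27025 promoters in the table (8.57%). Windows were found for 80.5% of the higher and 81.1% of the lower genes. Only 14 of the 20 interferon stimulated genes had one, too few for a share of that list, and the core was in 9 of them. Among the other 31 tested genes of the list it was in 18 of the 24 with a window. The 3 stretches upstream of the start shown here, chosen after the matches were seen, display the core in capitals for genes whose levels are given above. They lie on the minus strand at chr5:120777700-120777759 for Oas3, chr4:156200862-156200921 for Isg15 and chr11:48871421-48871480 for Irgm1.
Oas3: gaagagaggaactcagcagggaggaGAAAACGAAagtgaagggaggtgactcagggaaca
Isg15: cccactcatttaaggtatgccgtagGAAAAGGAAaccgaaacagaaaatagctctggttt
Irgm1: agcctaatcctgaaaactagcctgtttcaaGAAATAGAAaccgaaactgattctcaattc
A match of letters is a description and says nothing of binding. Of the other motifs searched the same way, the PU.1 motif GAGGAAGT was in 5.47% of higher, 2.79% of lower and 3.28% of all promoters. The RBPJ motif GTGGGAA, which follows Notch signals, was in 5.82%, 7.44% and 6.39%, and the AP-1 motif TGANTCA in 6.17%, 4.34% and 7.93%.

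Enzymes and receptors of lipid mediators had 10 of 27 genes higher and 3 lower, and the higher genes spanned synthesis, breakdown and sensing. Alox5 and Lta4h make leukotriene B4, and both were called higher in mcDC than in cDC1. Alox5 was at 3.998, 4.45 and 4.26 RPKM in cDC2, 0.964, 0.963 and 0.693 in cDC1, and 3.39, 1.91 and 3.503 in mcDC. Lta4h was at 98.2, 104 and 105 RPKM in cDC2, 55.2, 41.1 and 42.8 in cDC1, and 93.6, 88.5 and 83.2 in mcDC. Pla2g4a, the phospholipase that releases arachidonic acid, was at 9.05 to 12.2 RPKM in cDC2, 2.53 to 3.52 in cDC1 and 1.34 to 7.48 in mcDC. Pla2g4a overlapped between mcDC and cDC1. Hpgd, which degrades prostaglandins, was at 64.1, 59.3 and 59.5 RPKM in cDC2, 8.66, 5.54 and 6.599 in cDC1, and 21.04, 18.8 and 23.5 in mcDC. Pla2g7, which degrades platelet-activating factor, was at 40.8, 58.5 and 63.7 RPKM in cDC2, 1.28, 1.85 and 4.04 in cDC1, and 17.7, 19.04 and 26.2 in mcDC, with mcDC above cDC1 by 2.76 (SE 0.30, adjusted p = 0.00033). Lpcat2, which makes that mediator, was at 31.1, 27.6 and 21.8 RPKM in cDC2, 5.87, 5.99 and 6.298 in cDC1, and 19.2, 19.8 and 15.7 in mcDC. Together with Ptafr, its making, breakdown and sensing were thus all highest in cDC2, but mcDC stood above cDC1 in the enzymes and below it in the receptor. Ptger3 was at 12.5, 12.3 and 9.56 RPKM in cDC2, 1.39, 0.315 and 0.664 in cDC1, and 5.96, 3.29 and 0 in mcDC, with mcDC library 3 at 0. The lower genes were Ptger2 (0.202 to 0.874 RPKM in cDC2, 3.74 to 6.51 in cDC1 and 0.934 to 3.48 in mcDC), Mgll (0.115 to 0.387 RPKM in cDC2, 3.37 to 4.29 in cDC1 and 0.567 to 3.63 in mcDC) and Cysltr2 (0.663 to 0.722 RPKM in cDC2, 0.756 to 2.01 in cDC1 and 1.296 to 3.66 in mcDC). Of the 10 higher genes 6 were called higher in mcDC than in cDC1 and 1 lower.

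Of 49 transcription factors tested, 4 were higher and 5 were lower in cDC2, shares of 8.16% and 10.2% beside 5.88% and 6.64% of all genes. Cebpb, a factor of monocyte development, was at 51.98, 43.3 and 56.3 RPKM in cDC2, 3.89, 2.93 and 5.23 in cDC1, and 14.2, 9.94 and 20.7 in mcDC, with mcDC above cDC1 by 1.64 (SE 0.26, adjusted p = 0.0026). Zeb2 was given above. Pparg was at 6.58, 7.73 and 6.89 RPKM in cDC2, 1.62, 2.71 and 1.84 in cDC1, and 4.38, 4.91 and 1.85 in mcDC. Irf2 was at 53.1 to 54.4 RPKM in cDC2, 41.2 to 49.7 in cDC1 and 34.6 to 47.7 in mcDC. The lower factors were Irf8, Id2, Batf3, Zeb1 and Rbpj, the first 3 of them needed for cDC1. Irf8 was at 50.9, 83.2 and 94.7 RPKM in cDC2, 620.4, 785 and 777 in cDC1, and 206, 404 and 493 in mcDC. Id2 was at 109.6, 159 and 155 RPKM in cDC2, 441, 548 and 586 in cDC1, and 222, 372 and 522 in mcDC. Batf3 was at 123, 112 and 119.97 RPKM in cDC2, 167, 169 and 176 in cDC1, and 143, 159.95 and 249 in mcDC. For Irf8, Id2 and Batf3 none of the differences between mcDC and cDC1 was called, although the 3 Irf8 levels in mcDC were all below cDC1. Zeb1 was at 7.34 to 10.2 RPKM in cDC2, 11.3 to 11.98 in cDC1 and 11.2 to 13.2 in mcDC.

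In the Notch and lymphotoxin pathway, known for its role in splenic cDC2, 4 of 33 genes were higher and 4 lower. Both shares were 12.1%, beside 5.88% higher and 6.64% lower of all genes tested, and rest on few genes. Hes1, a classical Notch target, was at 33.03, 28.2 and 32.5 RPKM in cDC2, 15.9, 16.9 and 20.2 in cDC1, and 19.8, 16.6 and 18.7 in mcDC, and mcDC overlapped cDC1. Tnfsf14, the ligand LIGHT, was at 12.9, 9.56 and 13.2 RPKM in cDC2, 1.51, 2.09 and 1.88 in cDC1, and 5.39, 4.71 and 8.52 in mcDC. The coactivator Maml3 was at 3.66 to 4.48 RPKM in cDC2, 0.475 to 1.39 in cDC1 and 2.24 to 3.08 in mcDC. Ncstn, a γ-secretase subunit, was at 52.1 to 52.4 RPKM in cDC2, 40.02 to 45.9 in cDC1 and 36.2 to 47.5 in mcDC. Rbpj, through which Notch acts on DNA, was at 41.9, 40.2 and 38.9 RPKM in cDC2, 65.8, 68.02 and 64.99 in cDC1, and 42.7, 47.9 and 43.9 in mcDC, lower in cDC2 than in either subset though only slightly below mcDC. Notch4 was at 2.14, 2.496 and 2.29 RPKM in cDC2, 33.1, 45.3 and 35.4 in cDC1, and 7.43, 6.15 and 6.499 in mcDC. The Notch ligand gene Jag2 was at 0.349, 0.235 and 0.436 RPKM in cDC2, 6.23, 9.55 and 10.6 in cDC1, and 1.29, 1.82 and 1.77 in mcDC, and both were called lower in mcDC than in cDC1. Dtx3 was at 23.2 to 28.2 RPKM in cDC2, 30.4 to 35.5 in cDC1 and 32.3 to 44.2 in mcDC. Lymphotoxin β, Ltb, was not selected, at 140.5 to 190.4 RPKM in cDC2, 30.4 to 80.3 in cDC1 and 153 to 189.6 in mcDC.

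Most antigen presentation genes were not selected, as held for all genes tested, of which 5.88% were higher and 6.64% lower in cDC2. Beside these shares, the MHC class II list held a larger share of higher genes and the MHC class I list a larger share of lower genes. Each of these lists held a smaller share in the opposite direction, and all these shares rest on few genes. In the MHC class II list 3 of 23 genes were higher and 0 lower, namely the invariant chain protease Ctss (794, 888 and 971 RPKM in cDC2, 459.6, 378 and 408 in cDC1, and 527, 551 and 587 in mcDC), Ctsc (23.5 to 29.6 RPKM in cDC2, 7.18 to 9.06 in cDC1 and 16.7 to 21.1 in mcDC) and H2-Oa (195 to 246 RPKM in cDC2, 133 to 155 in cDC1 and 137 to 189.6 in mcDC). The most abundant members were not selected, with Cd74 at 11169 to 12584 RPKM in cDC2, 11741 to 12943 in cDC1 and 8496 to 11013 in mcDC. H2-Aa was at 6695 to 7853 RPKM in cDC2, 6487 to 7289 in cDC1 and 5059 to 6226 in mcDC. In the MHC class I list 1 of 23 genes was higher and 5 lower, and 4 of these 5 were called lower in mcDC than in cDC1. B2m, the light chain, was at 2144 to 2529 RPKM in cDC2, 1801 to 2004 in cDC1 and 1749 to 2058 in mcDC. The peptide transporter genes Tap1 and Tap2 were both called. Tap1 was at 136, 128 and 134 RPKM in cDC2, 233, 271 and 268 in cDC1, and 138, 139.8 and 171 in mcDC. Tap2 was at 93.1, 89.9 and 99.6 RPKM in cDC2, 171, 203 and 203 in cDC1, and 102, 106 and 141 in mcDC. In both, the lowest mcDC library lay just above cDC2. Tapbp was at 119 to 141 RPKM in cDC2, 184 to 230.4 in cDC1 and 153 to 167 in mcDC. Tapbpl was at 24.5 to 30.7 RPKM in cDC2, 45.5 to 62.3 in cDC1 and 30.7 to 32.5 in mcDC. Cd1d1 was at 13.04 to 20.3 RPKM in cDC2, 70.3 to 86.6 in cDC1 and 24.02 to 25.6 in mcDC. Among costimulatory and checkpoint genes, 2 of 22 were higher, Pdcd1lg2 (9.39 to 13.02 RPKM in cDC2, 1.54 to 2.74 in cDC1 and 2.79 to 8.32 in mcDC) and Vsir (55.3 to 62.3 RPKM in cDC2, 37.5 to 42.2 in cDC1 and 26.2 to 36.7 in mcDC), and 3 were lower. Cd86, a ligand of CD28, was at 32.02, 35.9 and 32.3 RPKM in cDC2, 133, 149 and 134 in cDC1, and 45.9, 52.000 and 61.8 in mcDC. Btla, an inhibitory receptor, was at 40.5, 51.2 and 42.8 RPKM in cDC2, 192, 239 and 228 in cDC1, and 61.5, 99.2 and 114 in mcDC. Cd24a was at 22.3, 42.8 and 56.7 RPKM in cDC2, 183, 216 and 216 in cDC1, and 107, 224 and 262 in mcDC. For Cd86 and Btla mcDC was called lower than cDC1, and for Cd24a it was not.

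Of all genes tested 5.88% were higher and 6.64% lower. The shares were 18.5% and 3.7% for phagosome and lysosome and 11.4% and 17.1% for integrins and adhesion. For cholesterol and lipid handling they were 14.3% and 3.57%. The glycolysis and hypoxia list, at 8.7% and 4.35%, was near the shares of all genes. All of these rest on few genes. In the phagosome and lysosome list 5 of 27 genes were higher and 1 lower. Cybb, a subunit of the NADPH oxidase that makes the oxidative burst, was at 172, 186 and 178 RPKM in cDC2, 62.7, 17.8 and 16.9 in cDC1, and 94.1, 67.6 and 36.3 in mcDC. In Cybb cDC1 library 1 reached into the mcDC range. Tfe3 was at 20.2 to 21.3 RPKM in cDC2, 16.7 to 19.4 in cDC1 and 13.3 to 19.98 in mcDC. The lower gene was Gusb, β-glucuronidase, at 38.5, 52.3 and 50.1 RPKM in cDC2, 283, 358 and 354 in cDC1, and 53.3, 87.6 and 85.4 in mcDC. Integrins and adhesion genes had 4 of 35 higher and 6 lower, with Itgal at 120.3 to 138 RPKM in cDC2, 81.5 to 91.9 in cDC1 and 68.7 to 81.96 in mcDC among the former and Itga3 (0.272 to 0.615 RPKM in cDC2, 2.84 to 3.26 in cDC1 and 0.85 to 1.84 in mcDC) and Itga6 (0.542 to 1.13 RPKM in cDC2, 3.59 to 4.01 in cDC1 and 1.91 to 3.19 in mcDC) among the latter. Of cholesterol and lipid handling genes 4 of 28 were higher and 1 lower. Lrp1, an endocytic receptor, was at 34.4, 41.2 and 44.5 RPKM in cDC2, 6.85, 2.49 and 3.49 in cDC1, and 16.6, 11.9 and 9.79 in mcDC. The fatty acid binding protein Fabp4 was at 11.9, 15.8 and 18.9 RPKM in cDC2, 0.567, 0 and 0 in cDC1, and 3.79, 1.96 and 6.06 in mcDC. Msr1 was at 2.07 to 3.75 RPKM in cDC2, 0.0227 to 0.114 in cDC1 and 0.455 to 0.826 in mcDC. Of these only Lrp1 and Fabp4 were called higher in mcDC than in cDC1. Soat1 was at 24.6 to 28.9 RPKM in cDC2, 19.2 to 21.6 in cDC1 and 14.1 to 17.6 in mcDC. The lower gene Fasn was at 17.8 to 21.7 RPKM in cDC2, 25.9 to 30.7 in cDC1 and 23.1 to 31.6 in mcDC. In glycolysis and hypoxia 2 of 23 were higher, Pfkfb4 (17.1 to 24.9 RPKM in cDC2, 3.25 to 3.94 in cDC1 and 11.4 to 12.8 in mcDC) and the lactate transporter Slc16a3 (14.8 to 18.5 RPKM in cDC2, 1.72 to 3.03 in cDC1 and 4.07 to 5.84 in mcDC), and 1 was lower, Pfkl (16.8 to 17.5 RPKM in cDC2, 19.8 to 21.2 in cDC1 and 18.1 to 23.5 in mcDC). Cell cycle genes (0 of 31 higher, 1 lower, Mcm6 at 21.6 to 23.6 RPKM in cDC2, 26.3 to 30.01 in cDC1 and 26.2 to 39.3 in mcDC) and immediate early and stress genes (1 of 26 higher, Socs3 at 20.8 to 30.1 RPKM in cDC2, 2.83 to 5.07 in cDC1 and 7.39 to 18.5 in mcDC, and 1 lower, Hsph1 at 8.57 to 10.7 RPKM in cDC2, 17.8 to 21.3 in cDC1 and 13.3 to 15.4 in mcDC) were selected at shares below the background.

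Many genes higher in cDC2 were in none of the lists. Among those with a cDC2 mean at least 4 times the mcDC mean, Krt80, a keratin, was at 103, 108 and 148 RPKM in cDC2, 7.11, 5.98 and 10.9 in cDC1, and 39.004, 28.6 and 18.9 in mcDC. Emilin2, an extracellular matrix protein, was at 25.9, 41.1 and 51.01 RPKM in cDC2, 1.97, 2.99 and 2.98 in cDC1, and 4.87, 9.42 and 11.6 in mcDC. In both every mcDC library exceeded every cDC1 library. Ceacam1, an adhesion receptor with inhibitory motifs, was at 17.1, 18.2 and 21.2 RPKM in cDC2, 1.65, 0.753 and 0.856 in cDC1, and 2.44, 1.97 and 6.08 in mcDC. Plaur, the urokinase receptor, was at 14.3, 16.97 and 21.6 RPKM in cDC2, 0.421, 0.12 and 0.752 in cDC1, and 3.22, 4.88 and 2.32 in mcDC. Thbd, thrombomodulin, was at 5.67, 6.999 and 9.01 RPKM in cDC2, 0.44, 0.0976 and 0.194 in cDC1, and 1.18, 1.45 and 1.41 in mcDC. These last 3, too, had mcDC between the other subsets. Xdh, xanthine dehydrogenase, was at 22.4, 35.1 and 41.4 RPKM in cDC2, 2.64, 2.497 and 3.37 in cDC1, and 6.47, 7.24 and 7.87 in mcDC. The stress-induced chromatin protein Nupr1 was at 22.9, 31.2 and 42.1 RPKM in cDC2, 0.435, 1.01 and 1.15 in cDC1, and 6.79, 7.17 and 8.38 in mcDC. In this gene too mcDC stood above cDC1. Skint3 was at 38.7, 34.6 and 32.5 RPKM in cDC2, 2.08, 0.496 and 1.05 in cDC1, and 12.6, 7.85 and 3.69 in mcDC. Cd101 was at 16.1, 13.3 and 10.5 RPKM in cDC2, 0.393, 0.308 and 0.159 in cDC1, and 5.92, 3.72 and 0 in mcDC. Cd101 and Skint3 had their lowest mcDC value in library 3, the shallowest library.

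The genes lower in cDC2 included many cDC1 identity genes, with mcDC levels that ranged from near cDC2 to near cDC1. Of 22 cDC1 identity genes tested, 0 were higher and 15 were lower in cDC2, and 9 of the 15 were called lower in mcDC than in cDC1. Xcr1, the chemokine receptor that defines cDC1, was at 1.95, 2.81 and 2.58 RPKM in cDC2, 131, 174 and 173 in cDC1, and 10.3, 17.3 and 19.4 in mcDC. Clec9a, a receptor for dead cells, was at 20.2, 17.04 and 24.3 RPKM in cDC2, 308, 353 and 315 in cDC1, and 46.6, 74.4 and 61.7 in mcDC. Cd8a, the coreceptor chain carried by splenic cDC1, was at 1.22, 1.27 and 1.41 RPKM in cDC2, 306, 344 and 346 in cDC1, and 3.72, 4.02 and 9.68 in mcDC. For Cd8a the difference of mcDC from cDC1 was -5.71 (SE 0.27, adjusted p = 5e-06), and mcDC and cDC2 were both under 10 RPKM. Itgae, CD103, was at 0.279, 0.371 and 0.429 RPKM in cDC2, 17.1, 42.02 and 64.3 in cDC1, and 1.04, 1.57 and 4.98 in mcDC, with a difference of mcDC from cDC1 of -3.55 (SE 0.49, adjusted p = 0.0013). Cadm1 was at 1.22, 1.78 and 1.51 RPKM in cDC2, 41.4, 58.9 and 56.5 in cDC1, and 4.33, 6.03 and 7.67 in mcDC. Rab7b (3.84, 9.99 and 11.97 RPKM in cDC2, 95.99, 118 and 122 in cDC1, and 25.8, 54.95 and 61.7 in mcDC) and Ifi205 (6.13, 19.8 and 23.8 RPKM in cDC2, 121, 146 and 190.3 in cDC1, and 33.3, 109 and 141 in mcDC) were lower in library 1 than in libraries 2 and 3 in every subset. Ifi205 belongs to a family of closely similar genes.

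The largest margins on the low side were taken among genes with means of at least 5 RPKM in both cDC1 and mcDC. That limit leaves out genes near 0 in mcDC. Of the 10 largest, 4 were in the cDC1 identity list (Xcr1, Tlr3, Tlr12 and Gcsam) and the other 6 were not. Hepacam2 was at 1.85, 1.59 and 1.73 RPKM in cDC2, 49.8, 51.3 and 43.6 in cDC1, and 8.58, 9.399 and 15.6 in mcDC. The actin-binding protein Dbn1 was at 2.55, 4.27 and 5.36 RPKM in cDC2, 51.7, 76.3 and 83.5 in cDC1, and 16.3, 22.01 and 31.8 in mcDC. Pdia5, an endoplasmic reticulum isomerase, was at 4.63, 6.52 and 6.31 RPKM in cDC2, 95.3, 113 and 111 in cDC1, and 18.2, 30.9 and 66.2 in mcDC. P2ry14, a receptor for UDP-sugars, was at 0.8995, 1.68 and 1.52 RPKM in cDC2, 30.3, 35.5 and 39.6 in cDC1, and 5.22, 8.54 and 11.3 in mcDC. In these 4 genes mcDC lay between the other subsets without overlap. Gcsam was at 1.03, 3.22 and 3.49 RPKM in cDC2, 66.9, 80.3 and 87.3 in cDC1, and 8.77, 26.3 and 37.2 in mcDC. The semaphorin Sema6d was at 1.698, 1.18 and 0.974 RPKM in cDC2, 7.91, 9.32 and 6.29 in cDC1, and 7.54, 6.36 and 6.38 in mcDC, and its cDC1 and mcDC libraries overlapped, with a difference of -0.18 (SE 0.19, adjusted p = 0.6) and adjusted p from 0.3 to 0.92 over 19 alternatives. Cxcr3 was at 2.702, 3.56 and 3.696 RPKM in cDC2, 18.6, 26.8 and 32.9 in cDC1, and 9.73, 18.5 and 26.2 in mcDC, and its mcDC libraries overlapped cDC1. Of these 10 genes 8 were called lower in mcDC than in cDC1 and 0 higher. Over all genes tested these shares were 5.88% and 9.53%. Mab21l3 and Ttc39a had the steepest falls from cDC1 to mcDC after Cd8a, at 0.0611, 0.0975 and 0.0452 RPKM in cDC2, 34.7, 39.2 and 39.3 in cDC1, and 0.853, 0.555 and 1.15 in mcDC and at 0.623, 0.816 and 0.395 RPKM in cDC2, 60.3, 91.8 and 84.98 in cDC1, and 2.98, 3.16 and 4.29 in mcDC, with differences of mcDC from cDC1 of -4.40 (SE 0.17, adjusted p = 3.3e-06) and -4.15 (SE 0.20, adjusted p = 5.4e-06). For Mab21l3 both mcDC and cDC2 were near or under 1 RPKM.

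A smaller number of genes low in cDC2 were highest in mcDC, 29 of the 795 by the call. Mertk, a receptor for apoptotic cells, was at 0.61, 0.818 and 0.775 RPKM in cDC2, 1.1003, 1.28 and 1.87 in cDC1, and 10.95, 15.8 and 14.2 in mcDC, with mcDC above cDC1 by 2.60 (SE 0.20, adjusted p = 5.5e-05). Slc45a3 was at 0.156, 0.224 and 0.277 RPKM in cDC2, 1.22, 0.494 and 0.828 in cDC1, and 5.82, 5.93 and 6.46 in mcDC, a difference of 1.95 (SE 0.20, adjusted p = 0.00024). Xcl1, the ligand of Xcr1 and a product of NK cells, was at 1.52, 2.25 and 3.84 RPKM in cDC2, 4.703, 9.03 and 14.996 in cDC1, and 25.9, 39.4 and 97.5 in mcDC, a difference of 2.29 (SE 0.50, adjusted p = 0.014). Its limma call was lost without cDC1 library 2 (adjusted p = 0.052, range over 19 alternatives 0.00016 to 0.052). Klrc1, which encodes the NKG2A receptor, was at 2.302, 1.88 and 2.35 RPKM in cDC2, 3.62, 2.97 and 4.73 in cDC1, and 9.98, 23.4 and 37.5 in mcDC, a difference of 2.21 (SE 0.38, adjusted p = 0.0043). Vcam1, an adhesion molecule, was at 9.92, 5.56 and 7.497 RPKM in cDC2, 30.997, 22.7 and 22.4 in cDC1, and 49.6, 59.6 and 74.6 in mcDC. The heme-degrading enzyme Hmox1 was at 18.8, 24.8 and 33.5 RPKM in cDC2, 42.1, 43.4 and 52.5 in cDC1, and 61.2, 95.3 and 165 in mcDC, just short of a call. Gata3 (0.15 to 0.216 RPKM in cDC2, 0.395 to 0.565 in cDC1 and 1.02 to 3.32 in mcDC), Cd160 (0.329 to 0.952 RPKM in cDC2, 1.72 to 2.26 in cDC1 and 3.35 to 11.5 in mcDC) and Ctsw (2.34 to 4.14 RPKM in cDC2, 4.92 to 10.9 in cDC1 and 15.03 to 35.1 in mcDC), genes of innate lymphocytes, were among the 29. In the NK cell list 4 of 13 genes were lower in cDC2 and 0 higher, and its summed level was 109 to 133 RPKM in cDC2, 114 to 163 in cDC1 and 214 to 476 in mcDC. In the T cell list 6 of 13 were lower and 0 higher, with sums of 24.8 to 37.9, 49.7 to 85.4 and 47.3 to 73.5 RPKM, and the defining Cd3e was at 0.906 to 2.85 RPKM in cDC2, 3.79 to 6.18 in cDC1 and 3.79 to 6.09 in mcDC. Cd3d was at 1.37 to 3.38 RPKM in cDC2, 3.41 to 7.52 in cDC1 and 3.65 to 8.76 in mcDC. The part of NK and T cell RNA in these genes was not tested.

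The B cell and plasmacytoid lists went both ways. Of 11 B cell genes 2 were higher and 2 lower in cDC2. Cd22, an inhibitory sialic acid receptor, was at 64.02, 68.6 and 58.04 RPKM in cDC2, 5.87, 5.59 and 5.16 in cDC1, and 49.7, 42.7 and 34.2 in mcDC, and mcDC was above cDC1 by 2.71 (SE 0.15, adjusted p = 8e-06), while Bank1 was at 8.14 to 10.6 RPKM in cDC2, 2.11 to 2.81 in cDC1 and 6.598 to 7.02 in mcDC. Cd79a (1.06 to 2.24 RPKM in cDC2, 2.41 to 3.56 in cDC1 and 3.29 to 4.98 in mcDC) and Fcrla (0.598 to 1.54 RPKM in cDC2, 24.6 to 27.9 in cDC1 and 2.51 to 6.19 in mcDC) were lower, and the defining gene Ms4a1 (1.797 to 5.23 RPKM in cDC2, 12.7 to 14.99 in cDC1 and 1.42 to 8.44 in mcDC) was not selected. The summed list was at 96.8 to 112 RPKM in cDC2, 64.1 to 67.5 in cDC1 and 73.6 to 115 in mcDC. Of 13 plasmacytoid dendritic cell genes 1, Lair1, was higher and 5 were lower, with Siglech at 0.613, 0.664 and 0.777 RPKM in cDC2, 16.8, 4.35 and 4.98 in cDC1, and 4.35, 2.89 and 4.85 in mcDC. Lag3 was at 7.42 to 15.3 RPKM in cDC2, 20.9 to 48.5 in cDC1 and 27.7 to 32.5 in mcDC. Siglech and Lag3 overlapped between cDC1 and mcDC. Atp1b1 was at 1.11 to 1.55 RPKM in cDC2, 2.21 to 5.504 in cDC1 and 7.499 to 14.02 in mcDC. Pacsin1 was at 0.324 to 0.405 RPKM in cDC2, 2.65 to 3.01 in cDC1 and 0.577 to 0.763 in mcDC.

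Some genes selected in the same direction lay side by side in the genome. Taking the 11957 tested genes placed in the RefSeq gene table of GRCm38.p6 in order, 145 of the 704 higher genes (20.6%) had another higher gene directly next to them, and so did 139 of the 793 lower genes placed (17.5%). Of all 11957 genes placed, 11.2% had a higher gene and 12.6% a lower gene directly next to them. Among the higher genes these included runs of receptor families. On chromosome 11 the lectins Asgr2 (1.58 to 1.73 RPKM in cDC2, 0.0497 to 0.169 in cDC1 and 0.266 to 0.744 in mcDC), Mgl2 and Clec10a stood in a row, and elsewhere on it Cd300ld and Cd300e with a further member of their cluster. Fam20a (1.33 to 1.803 RPKM in cDC2, 0.0714 to 0.122 in cDC1 and 0.306 to 0.919 in mcDC), Abca9 (18.4, 20.7 and 18.7 RPKM in cDC2, 1.59, 0.246 and 0.724 in cDC1, and 6.18, 4.67 and 3.97 in mcDC) and Abca6 (1.36 to 1.55 RPKM in cDC2, 0.0853 to 0.496 in cDC1 and 0.0321 to 0.361 in mcDC) formed another. In Asgr2, Mgl2, Fam20a and Abca6 no cDC1 or mcDC library exceeded 1 RPKM. These genes passed the filter on low values through the cDC2 libraries alone, so nothing is read from their place in a run. On chromosome 3 Sirpb1a and Sirpb1b lay in a run of 5 genes, the longest found, and reads of such copies can be shared. Among the lower genes, Btla, Cd200 (2.81 to 4.17 RPKM in cDC2, 12.3 to 16.3 in cDC1 and 8.42 to 15.7 in mcDC) and Gcsam lay together on chromosome 16, and Gimap9 (0.864 to 1.45 RPKM in cDC2, 1.51 to 2.46 in cDC1 and 1.54 to 3.25 in mcDC), Gimap4 (1.07 to 3.08 RPKM in cDC2, 3.34 to 6.38 in cDC1 and 7.05 to 18.9 in mcDC) and Gimap6 (2.97 to 6.48 RPKM in cDC2, 8.61 to 16.8 in cDC1 and 21.1 to 48.1 in mcDC) on chromosome 6.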

How the data were processed

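RNA sequencing values of 9 libraries were analysed, 3 each of cDC1, cDC2 and mcDC. The deposited values are RPKM per gene, a unit that the files do not name and that was read from their steps: 100% of values were whole multiples, within 0.005 reads, of what 1 read is worth in that gene and library. They refer to genome build mm8, per the submitters' processing notes. The aligner, counter, annotation and use of strand are not given in the sources used here. No columns of other samples were present (0).

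Of 14862 genes, the 11971 above 1 RPKM in at least 2 libraries were tested with limma 3.58.1 (R 4.3.3) on log2(RPKM + 1), with all 3 groups in the fit, 6 residual degrees of freedom and Benjamini-Hochberg adjustment over all genes, with a threshold of 0.05. A call means an adjusted p below it. Other steps used Python 3.11.15, numpy 2.4.6, pandas 2.3.3, scipy 1.17.1 and matplotlib 3.10.9, and the fit was tested on simulated data. Depth per library, recovered from the steps, was 5138302 to 12429013 reads. Replicate libraries differed by more than sampling noise.

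The genes, lists and tests were chosen with earlier results of these data known. Genes named were the 4 markers, the 15 higher and 10 lower with the largest margins, those missing from mcDC, the strongest calls between mcDC and cDC1, up to 4 genes of each list in each direction by margin with up to 2 others, and the genes at the edge of the rule. Predicted and clone names were left out, and other genes named were chosen after their values were seen. Some genes that the rule names are not reported here. Of list names, 95.0% matched. RefSeq tables of GRCm38.p6 gave names, gene order and promoters only.

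Same-numbered libraries come from the same run of titles. Over 9071 genes the deviations of all 9 same-run pairs correlated (r from 0.104 to 0.52), so a fit with the run as a block was an alternative. Others were the pseudocount, the filter, the scaling, the fit of only cDC1 and mcDC, a wider margin, and each library left out. Added after seeing the data were voom on recovered reads, the block without mcDC library 3, and Poisson limits.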

Additional observations from a re-analysis of the deposited data

How the results depend on the processing

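The numbers of higher and lower genes, 704 and 795, changed order with median-of-ratios scaling (984 and 567), quantile normalization (850 and 602) and a filter of 5 RPKM (599 and 577). Requiring libraries to be 1.5-fold apart left 122 higher and 76 lower genes, and requiring 95% Poisson limits to be apart, chosen after seeing the data, left 305 and 150. With each library left out in turn, the higher genes numbered 723 to 1067, in place of 704, and the lower genes 851 to 1206, in place of 795. Leaving a library out loosens the order that the rule asks for, so a rise is largely built in. The highest numbers were without mcDC library 1, and the lower genes were 1202 without mcDC library 3. Genes missing from mcDC were 4 with mcDC under 0.5 RPKM and 10 to 18 in the leave-outs, with 18 without cDC2 library 1. Of the higher genes, 157 to 308 were called upward in mcDC in the leave-outs, lowest without cDC1 library 2, and 1 to 8 were called downward, with 8 without mcDC library 1 and 2 without cDC1 library 1, mcDC library 2 or mcDC library 3. That downward count was 9 with median-of-ratios scaling, 7 with quantile normalization, 3 with the replicate block, 3 with voom and 4 with the block without mcDC library 3. Of the lower genes, 12 to 43 were called upward in the leave-outs, with 12 without cDC1 library 2, 14 without cDC1 library 3, 15 without cDC2 library 2, 17 without mcDC library 2 and 18 without either cDC2 library 1 or 3. That count was 17 with either scaling, 13 with only cDC1 and mcDC in the fit and 18 with voom. The downward count was 128 to 237, lowest without cDC1 library 2. Over all genes, upward calls were 575 to 1726 and downward calls 382 to 894 in the leave-outs. Upward calls were 575 and 664 without cDC1 libraries 2 and 3 and 1726 without mcDC library 3, and downward calls 382 without cDC1 library 2. They were 637 and 460 with only cDC1 and mcDC in the fit, and 1940 and 1065 with the block without mcDC library 3. Genes called against both subsets were 450 with the replicate block, in place of 287, and 101 to 418 in the leave-outs, with 101 and 116 without cDC2 libraries 2 and 3, 181 without mcDC library 2, 185 without cDC1 library 3 or cDC2 library 1, and 188 without cDC1 library 2. Apart from that count of 450 and the downward count of 3 above, the replicate block moved no count by more than 1.5 times. Of the named genes, only those given with an SE were followed through the alternatives. Among them the block made a call of S1pr5. The calls of other named genes were not checked in this way. Apart from the looser rule in the leave-outs, the causes were not tested. The uncalled difference of mcDC from cDC1 in Clec10a changed sign, from 0.22 to -0.031 and -0.107 without mcDC libraries 2 and 3 (leave-outs -0.107 to 0.805) and to -0.232 with voom, and stayed uncalled. Of the other values for the named genes given with an SE, 553 kept their direction and side of the threshold, 9 lost a call and 5 gained one. At the mcDC depth, differences of a few reads were not detectable.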
